A study of Mus musculus with 4 samples.

Results

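The MHC antigen presentation genes were followed in the hippocampus of mice after tibial fracture. They are 10 genes chosen by symbol. The 6 class I genes are B2m, H2-D1, H2-K1, Tap1, Tap2 and Tapbp, and the 4 class II genes are Cd74, H2-Aa, H2-Ab1 and H2-Eb1. All 10 are among the 29300 genes of the deposited table, and all 10 passed the filter on low counts that kept 17144 genes. The mice were wild-type C57BL/6 males, 7 to 8 months old, in 2 groups of 2. The control (sham) mice received isoflurane anesthesia and tramadol for analgesia. The surgery mice received the same anesthesia and analgesia together with an open tibial shaft fracture fixed by an intramedullary nail. Hippocampal tissue was taken on day 1 after the operation, and each value is a level in bulk tissue, in which fewer cells of a type and less RNA per cell cannot be told apart. The mice are named sham 1, sham 2, surgery 1 and surgery 2.

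MHC class I molecules are found on nearly all nucleated cells and show peptides made in the cytosol to CD8+ T cells. A heavy chain (H2-K1 or H2-D1 in the C57BL/6 mouse) pairs with beta-2-microglobulin (B2m) in the endoplasmic reticulum, where the TAP1 and TAP2 transporter brings in peptides and tapasin (Tapbp) holds the empty molecule beside the transporter. MHC class II molecules are pairs of an alpha and a beta chain, H2-Aa with H2-Ab1 in I-A and H2-Ea with H2-Eb1 in I-E, assembled around the invariant chain (Cd74), and show peptides from endosomes to CD4+ T cells. In the healthy brain class II is low in microglia and is typical of macrophages and dendritic cells at the borders, in the meninges, perivascular spaces and choroid plexus. Both classes are induced by interferon-gamma.

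Total counts ran from 15763432 to 18573386 per mouse, and the 10 genes together held 3018 to 5372 counts. Levels are CPM, the count of a gene relative to the total of its library, scaled by TMM. The label of the tissue was checked against 7 neuronal markers. Prox1, which marks dentate granule neurons, was at 83.3 to 137 CPM in the 4 mice and Fibcd1, which marks CA1 neurons, at 145 to 234 CPM. Between groups these markers went both ways, with log2 fold changes from -0.70 (Wfs1) to 0.53 (Neurod6). In edgeR 5 of the 7 had an adjusted p under 0.05, beside 26% of all tested genes. With the length and GC offsets described below 0 did, beside 1.15%, and Wfs1 was at -0.44 and Neurod6 at 0.10. Markers of the choroid plexus, a tissue that lies against the hippocampus, summed to 127 CPM in sham 1 and to 2031 to 5399 CPM in the other 3 mice.

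The transcription start regions of 5 of the 10 genes are shown, those of 3 class I and 2 class II genes, so that the letters of both classes can be read side by side. RefSeq start regions, 250 bases before to 50 after the start site on GRCm38.p6, were given for 7 of the 10 genes. H2-D1 and H2-K1 are the classical heavy chain genes of chr17. The H2-D1 region is chr17:35262844-35263143 (plus strand) and the H2-K1 region is chr17:34000284-34000583 (minus strand). B2m is on another chromosome, and its region is chr2:122147437-122147736 (plus strand). H2-Aa (chr17:34287774-34288073, minus strand) and H2-Eb1 (chr17:34305617-34305916, plus strand) stand for class II. Capitals mark matches, on either strand, to 4 patterns chosen after the sequences were seen. They are ATTGG (the core bound by NF-Y), TGACG (a cyclic AMP response element core), AANNGAAA (a pattern bound by interferon regulatory factors) and GGGATTCCC (a kappa B pattern). Matches may overlap, as they do in H2-Aa, where TGACG on both strands makes 1 run of capitals.
H2-D1: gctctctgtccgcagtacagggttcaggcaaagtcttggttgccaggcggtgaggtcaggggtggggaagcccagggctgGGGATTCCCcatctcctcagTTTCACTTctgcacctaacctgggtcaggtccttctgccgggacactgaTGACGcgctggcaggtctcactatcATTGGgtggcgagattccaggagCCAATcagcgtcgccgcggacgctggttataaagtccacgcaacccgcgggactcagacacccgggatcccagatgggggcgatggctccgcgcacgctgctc
H2-K1: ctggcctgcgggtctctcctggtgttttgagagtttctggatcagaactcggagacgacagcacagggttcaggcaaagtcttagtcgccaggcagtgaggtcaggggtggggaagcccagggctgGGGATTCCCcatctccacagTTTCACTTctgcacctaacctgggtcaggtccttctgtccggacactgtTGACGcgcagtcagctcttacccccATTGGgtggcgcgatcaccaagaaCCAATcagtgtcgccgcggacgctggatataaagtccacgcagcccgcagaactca
B2m: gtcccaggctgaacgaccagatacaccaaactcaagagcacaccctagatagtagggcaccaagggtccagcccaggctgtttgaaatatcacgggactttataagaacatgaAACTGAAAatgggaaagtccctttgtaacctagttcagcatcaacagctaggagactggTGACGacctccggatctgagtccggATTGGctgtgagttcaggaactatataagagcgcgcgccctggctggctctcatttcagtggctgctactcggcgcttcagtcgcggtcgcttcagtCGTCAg
H2-Aa: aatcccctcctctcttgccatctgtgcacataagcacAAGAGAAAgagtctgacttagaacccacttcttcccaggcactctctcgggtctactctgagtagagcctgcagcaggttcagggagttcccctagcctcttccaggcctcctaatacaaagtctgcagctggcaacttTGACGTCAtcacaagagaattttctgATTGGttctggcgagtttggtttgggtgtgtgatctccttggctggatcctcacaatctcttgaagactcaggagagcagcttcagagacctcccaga
H2-Eb1: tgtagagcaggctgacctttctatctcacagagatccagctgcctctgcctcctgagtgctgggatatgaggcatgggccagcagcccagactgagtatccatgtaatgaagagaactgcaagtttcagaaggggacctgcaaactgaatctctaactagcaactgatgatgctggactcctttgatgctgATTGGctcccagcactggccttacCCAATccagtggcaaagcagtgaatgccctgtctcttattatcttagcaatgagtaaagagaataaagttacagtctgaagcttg

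All 7 regions held ATTGG, which occurred in 37.4% of the 32851 start regions of the mouse. TGACG occurred in 5 of the 7 and in 20.8% of all, AANNGAAA in 4 of the 7 and in 23.9% of all, and GGGATTCCC in 2 of the 7 and in 0.353% of all. The 2 with the kappa B pattern were H2-D1 and H2-K1. Placed without gaps at the shift with most matching bases, these 2 regions had the same base at 180 of 254 positions (70.9%). In H2-D1, H2-K1, B2m and H2-Aa the order from the 5′ side was the interferon regulatory factor pattern, TGACG and ATTGG. In H2-D1 these patterns began 150, 101 and 76 bases before the start site, in H2-K1 104, 55 and 30, and in B2m 137, 78 and 53. In H2-Aa they began 213, 74 and 48 bases before the start site. A match describes these letters and is no measure of binding.

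On day 1 after the operation no MHC gene passed the test between surgery and control mice. In edgeR's quasi-likelihood test, 0 of the 6 class I genes and 0 of the 4 class II genes had an adjusted p under 0.05 together with a ratio of surgery to sham of 1.5 or more, or of 0.67 or less, a rule that 9.01% of the 17144 tested genes met. By adjusted p alone 0 of 10 passed, beside 26% of all tested genes, and at an unadjusted p under 0.05 only B2m of the 10 passed, beside 39.4%. In DESeq2's Wald test 0 of 10 met both criteria (7.31% of all tested genes) and 1 of 10, B2m, passed by adjusted p alone (21.7%). The log2 fold changes (surgery minus sham) ran from -0.09 for Tap2 to 0.48 for B2m, with a median of 0.10 over class I and 0.35 over class II, beside 0.01 over all tested genes. The class II median was below 0 without surgery 2 (-1.04) or sham 1 (-0.09) and was 0.97 without surgery 1 and 1.01 without sham 2, so its sign and size rest on single mice. The class I median was -0.35 without surgery 2, 0.43 without surgery 1, 0.04 without sham 1 and 0.25 without sham 2.

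**Figure D1:**
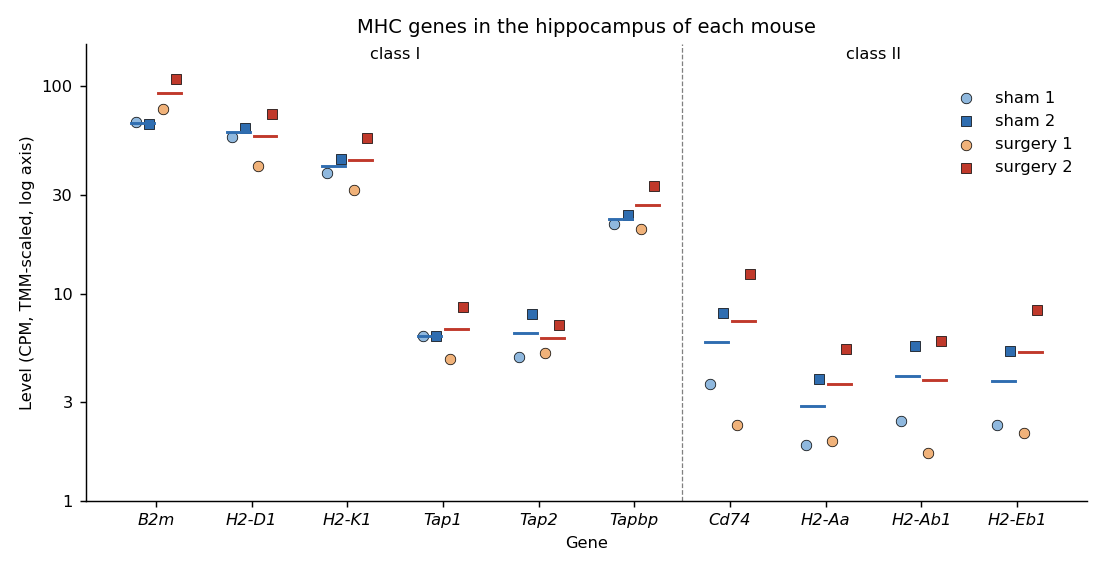
Level of each gene (CPM, log axis) in each mouse, with blue for sham and orange and red for surgery; circles are replicate 1, squares replicate 2 and short lines the group means. Surgery 2 is highest for every gene but Tap2, and only for B2m do both surgery mice lie above both sham mice.

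B2m (ENSMUSG00000060802, chr2:122147686-122153083), the light chain shared by class I molecules, was measured at 67.5 CPM in sham 1, 65.5 in sham 2, 77.6 in surgery 1 and 108 in surgery 2. Both surgery mice were above both control mice and surgery 2 lay farthest from them, and B2m was the only member whose groups did not overlap. Groups that do not overlap were common, at 65.5% of all tested genes. The means were 66.5 ± 1.35 CPM in control mice and 92.9 ± 21.7 CPM in surgery mice (SD, n = 2). The log2 fold change was 0.48 (standard error 0.15, 95% interval 0.13 to 0.84, edgeR adjusted p = 0.057), a 1.40-fold difference. The value was 0.69 without surgery 1 and 0.23 without surgery 2, fits that leave a single surgery mouse. Over the alternatives that kept every mouse the adjusted p ran from 0.012 (DESeq2) to 0.94 (edgeR with the offset described below).

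The transcript of B2m is short (860 nt) and low in GC (41.2%), and across all genes the fold change moved with GC content. Tested genes in the same eighth of GC content as B2m had a median log2 fold change of 0.60, which is above that of B2m itself. After each library's own trend with GC content and transcript length had been fitted and entered as an offset, the B2m value was -0.03 (standard error 0.14, edgeR adjusted p = 0.94). With these offsets 0 of 10 members passed by adjusted p alone, beside 1.15% of the genes tested. The other 9 members have GC contents of 51.0% to 57.3%, and the medians of their own GC eighths were -0.25 or -0.07. The offsets raised all 9 of these values and turned the sign for H2-D1 (0.14), Tap2 (0.15) and H2-Ab1 (0.18). The median with the offsets was 0.23 over class I and 0.47 over class II, beside -0.03 over all tested genes. Whether the GC trend comes from the libraries or from the cells was not tested.

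**Figure D2:**
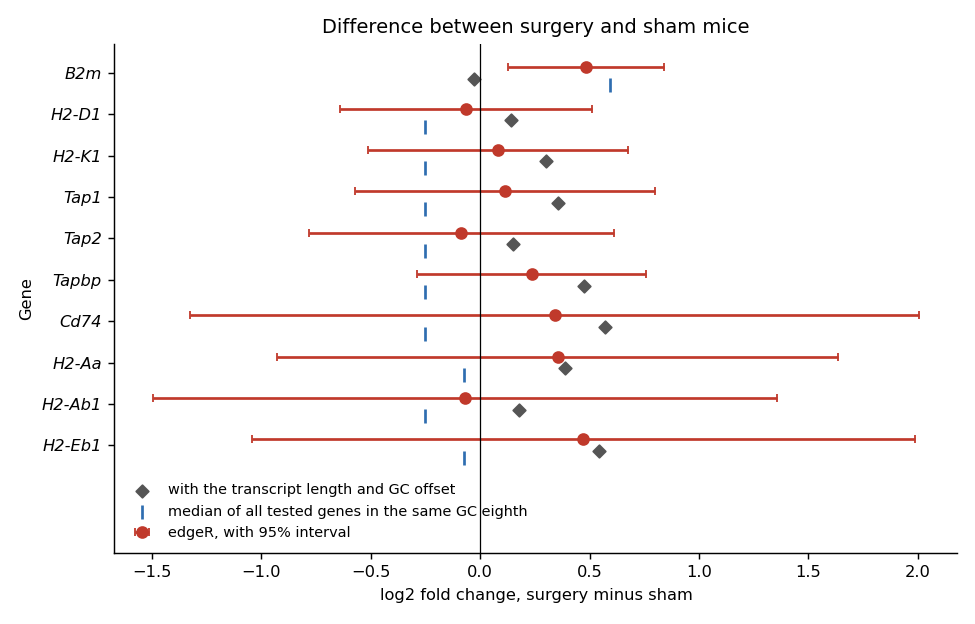
The log2 fold change of each gene (surgery minus sham) with its 95% interval from edgeR (red), the value with the transcript length and GC offset (grey diamonds) and the median of all tested genes of like GC content (blue ticks). The B2m value of 0.48 goes to -0.03 with the offset, and the intervals of the other 9 genes include 0.

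The 2 heavy chain genes did not follow B2m. H2-D1 (ENSMUSG00000073411, chr17:35262730-35267499) was measured at 56.7 and 63.2 CPM in sham 1 and 2, and at 41.4 and 73.1 CPM in surgery 1 and 2. H2-K1 (ENSMUSG00000061232, chr17:33996017-34000333) was measured at 38.1, 44.8, 31.7 and 56.1 CPM in the same order. For both genes surgery 1 was the lowest and surgery 2 the highest of the 4 mice, so the control mice lay inside the range of the surgery mice. The log2 fold changes were -0.06 (95% interval -0.64 to 0.51, edgeR adjusted p = 0.87) for H2-D1 and 0.08 (-0.51 to 0.68, edgeR adjusted p = 0.84) for H2-K1. These intervals leave room for a change of about the size measured for B2m in either direction. The H2-D1 value depended on the surgery mice, with -0.53 without surgery 2 and 0.27 without surgery 1. H2-K1 was at 0.42 without surgery 1 and at -0.38 without surgery 2. Each of these fits leaves a single surgery mouse and so holds no spread between surgery mice.

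Part of the sequence of the heavy chain genes is shared with other class I genes. Of the 75 nt windows in the annotated transcripts of H2-D1, 5.40% also occur in transcripts of other genes, chiefly H2-Q1, and for H2-K1 the share is 3.10%. Their sum is free of a split of reads between the 2 genes, but not of a split with H2-Q1 and other genes. It was 94.8 and 108 CPM in the control mice and 73.1 and 129 CPM in the surgery mice. The level of B2m relative to this sum was 0.712 and 0.607 in sham 1 and 2, and 1.06 and 0.838 in surgery 1 and 2. The ratio was higher in both surgery mice than in both control mice, but with the length and GC offsets the log2 fold change of B2m (-0.03) was below those of H2-D1 (0.14) and H2-K1 (0.30). B2m also supplies the light chain of other class I molecules and of the neonatal Fc receptor.

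The genes that load peptides were measured at lower levels. Tap1 (ENSMUSG00000037321, chr17:34187553-34197225), one half-transporter of the peptide pump, was at 6.21, 6.24, 4.83 and 8.59 CPM in sham 1, sham 2, surgery 1 and surgery 2. Tap2 (ENSMUSG00000024339, chr17:34203527-34216321), its partner, was at 4.93, 7.99, 5.14 and 7.05 CPM. Tap2 was the only member not highest in surgery 2. Its highest level was in sham 2. Tapbp (ENSMUSG00000024308, chr17:33915899-33929288), the chaperone tapasin, was at 21.7, 23.9, 20.4 and 33.1 CPM in the same order. The log2 fold changes were 0.11 (95% interval -0.57 to 0.80) for Tap1, -0.09 (-0.78 to 0.61) for Tap2 and 0.23 (-0.29 to 0.76) for Tapbp, with edgeR adjusted p-values of 0.80, 0.86 and 0.47. Tapbp was at 0.52 without surgery 1 and at -0.15 without surgery 2, with a single surgery mouse left in each fit. Exons of Tap1 overlap Psmb9 on the opposite strand, those of Tap2 overlap 2 other genes on the opposite strand, and those of Tapbp overlap Zbtb22 on the same strand. Reads in the overlaps cannot be assigned with certainty, since the use of strand in the counting is not given in the sources used here.

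The class II genes were low and varied far more between mice of one group than between groups. Cd74 (ENSMUSG00000024610, chr18:60803848-60812646), the invariant chain, had 63 and 147 counts in sham 1 and 2 and 37 and 210 in surgery 1 and 2, or 3.66, 8.04, 2.32 and 12.4 CPM. H2-Aa (ENSMUSG00000036594, chr17:34282744-34287827), the alpha chain, was at 1.86, 3.88, 1.94 and 5.39 CPM in the same order. Its beta chain partner H2-Ab1 (ENSMUSG00000073421, chr17:34263209-34269418) was at 2.44, 5.58, 1.69 and 5.93 CPM. The second beta chain, H2-Eb1 (ENSMUSG00000060586, chr17:34305877-34316199), was at 2.32, 5.25, 2.13 and 8.35 CPM. All 4 genes had one low and one high mouse in each group, with sham 2 and surgery 2 the high ones. C57BL/6 mice are known to carry a defective H2-Ea gene, so the H2-Eb1 chain lacks its usual partner in this strain.

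Between surgery and control mice the class II log2 fold changes were 0.34 (95% interval -1.33 to 2.01) for Cd74, 0.35 (-0.93 to 1.64) for H2-Aa, -0.07 (-1.5 to 1.36) for H2-Ab1 and 0.47 (-1.04 to 1.99) for H2-Eb1. Their edgeR adjusted p-values were 0.75, 0.66, 0.95 and 0.62. Standard errors ran from 0.53 to 0.69, beside a median of 0.14 over all tested genes. A change of 2-fold in either direction lay inside the interval of Cd74, H2-Ab1 and H2-Eb1, and a 2-fold rise inside that of H2-Aa, so such changes are not excluded. Cd74 was at -1.34 without surgery 2, -0.11 without sham 1, 1.06 without surgery 1 and 1.02 without sham 2. Each of these fits leaves a single mouse in a group.

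In all class II genes the 2 mice of a group lay farther apart than the group means did. Sham 2 was above sham 1 by 2.2-fold for Cd74 (95% interval 1.63 to 3.0), 2.09-fold for H2-Aa (1.36 to 3.28), 2.29-fold for H2-Ab1 (1.58 to 3.36) and 2.26-fold for H2-Eb1 (1.55 to 3.36). Surgery 2 was above surgery 1 by 5.36-fold for Cd74 (3.77 to 7.83), 2.77-fold for H2-Aa (1.83 to 4.32), 3.5-fold for H2-Ab1 (2.27 to 5.57) and 3.92-fold for H2-Eb1 (2.68 to 5.88). These are exact conditional binomial intervals, which cover counting error only, and none of the 8 includes 1. On the log2 scale the class II medians were 1.16 in the control mice and 1.89 in the surgery mice. The 1549 tested genes in the same range of level (3.27 to 6.62 CPM) had a median absolute log2 ratio of 0.25 in each group. Of these 1549 genes, 6 had ratios at least as large in both groups as those of H2-Aa, the smallest of the 4 class II genes by this measure, so these 6 include the 4 by construction.

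Class I differed less between mice, and chiefly between the surgery mice. Surgery 2 was above surgery 1 by 1.76-fold for H2-D1 (95% interval 1.6 to 1.94), 1.77-fold for H2-K1 (1.59 to 1.98), 1.78-fold for Tap1 (1.34 to 2.38) and 1.62-fold for Tapbp (1.41 to 1.86). The ratio was 1.39 for B2m (1.3 to 1.5) and 1.37 for Tap2 (1.03 to 1.84). In the control mice the ratio of sham 2 to sham 1 was 0.972 for B2m, 1.12 for H2-D1, 1.17 for H2-K1, 1.00 for Tap1 and 1.10 for Tapbp, and it was over 1.5 only for Tap2 (1.62, interval 1.23 to 2.14). The ratios of the surgery mice were nearly equal for H2-D1, H2-K1 and Tap1. Surgery 2 was the highest of the 4 mice for 5 of 6 class I and 4 of 4 class II genes, as it was for 28.4% of all tested genes.

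**Figure D3:**
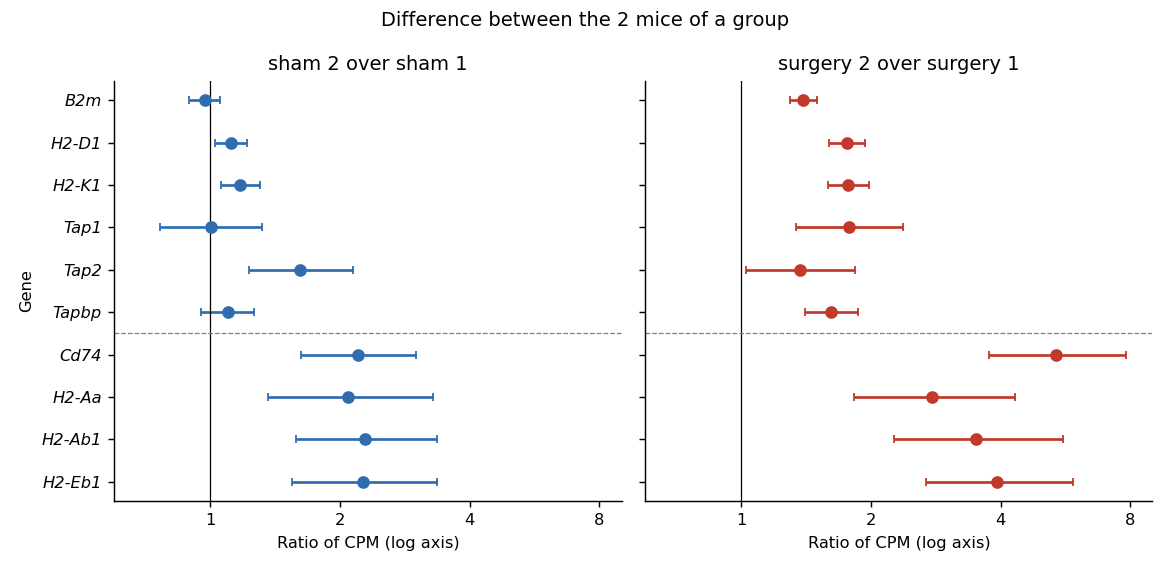
Ratio of CPM between the 2 mice of each group (log axis) with exact 95% intervals for counting error, sham on the left and surgery on the right; the dashed line parts class I (above) from class II. All class II ratios lie above 2 in both groups, while class I ratios lie between 0.972 and 1.62 in sham and between 1.37 and 1.78 in surgery.

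Levels of different genes were compared per kilobase of transcript, as means over the 4 mice. B2m was highest at 92.7 CPM per kb, followed by H2-D1 (27.9), H2-K1 (26.4) and Tapbp (8.55). Below them were Cd74 (4.69), H2-Ab1 (3.23), H2-Aa (2.90), H2-Eb1 (2.71), Tap1 (2.19) and Tap2 (1.82). The lowest B2m value of any mouse (76.2 CPM per kb) was above the highest of H2-D1 (34.8). H2-D1 and H2-K1 did not differ beyond their spread, with 19.7 to 34.8 and 19.6 to 34.6 CPM per kb over the 4 mice. From Tapbp downwards the ranges of neighbours overlapped, with 7.05 to 11.4 CPM per kb for Tapbp and 1.65 to 8.82 for Cd74. Within each mouse Tapbp was above Cd74.

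The other genes of the class I pathway were taken from a list of 28, of which 27 were in the table and 24 were tested. None of the 24 met the adjusted p and fold criteria, by edgeR or by DESeq2, and 5 had an unadjusted p under 0.05, beside 9.01% and 39.4% of all tested genes by edgeR. By adjusted p alone 2 passed, both higher in surgery mice, beside 26% of all tested genes. They were Canx and Pdia3, which encode the endoplasmic reticulum chaperone calnexin and the oxidoreductase ERp57 that serve many glycoproteins beside class I. Canx was at 204, 184, 275 and 271 CPM in sham 1, sham 2, surgery 1 and surgery 2, a log2 difference of 0.49 ± 0.07 (SE, edgeR adjusted p = 0.0060). Pdia3 was at 131, 136, 188 and 173 CPM, a difference of 0.44 ± 0.07 (edgeR adjusted p = 0.0071). With the length and GC offsets these differences were 0.06 and 0.27, with edgeR adjusted p-values of 0.67 and 0.12. Calr (calreticulin) at 0.05 and Psme1 (a proteasome activator subunit) at -0.10 did not pass, and the median log2 fold change of the list was 0.08.

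Mr1, which presents microbial vitamin metabolites, was at 4.47, 7.0, 8.21 and 10.5 CPM in sham 1, sham 2, surgery 1 and surgery 2 (log2 fold change 0.71, edgeR adjusted p = 0.090). The non-classical gene H2-T24 was at 8.01, 5.80, 10.8 and 10.1 CPM (0.61, edgeR adjusted p = 0.068). Both were higher in both surgery mice, did not pass the test of group alone, and were chosen after their values were seen. Groups did not overlap for 65.5% of all tested genes. With the length and GC offsets Mr1 was at 0.40 (edgeR adjusted p = 0.41) and H2-T24 at 0.55 (0.18). With the replicate number as a further term (a replicate block) both were called (edgeR adjusted p = 0.026 and 0.039), beside 10% of all tested genes.

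The immunoproteasome subunits, which replace their constitutive counterparts under interferon, did not share one order. Psmb10 was at 25.0, 23.5, 20.4 and 18.01 CPM in sham 1, sham 2, surgery 1 and surgery 2, lower in both surgery mice (log2 fold change -0.33, edgeR adjusted p = 0.075). The groups did not overlap for 65.5% of all tested genes. With the length and GC offsets Psmb10 was at -0.11 (edgeR adjusted p = 0.65). Psmb8 had 20, 19, 14 and 37 counts in sham 1, sham 2, surgery 1 and surgery 2, Psmb9 had 37, 36, 20 and 43, and Nlrc5, which activates class I promoters, had 38, 35, 22 and 50. Psmb8, Psmb9 and Nlrc5 were lowest in surgery 1 and highest in surgery 2, as H2-D1, H2-K1 and Tap1 were, while Psmb10 was lowest in surgery 2. The non-classical heavy chain gene H2-Q1 had 4, 13, 4 and 64 counts, and its neighbours H2-Q6 and H2-Q7 had 87 and 92 counts in surgery 2 against 24 to 46 in the other mice. These 7 genes were chosen after their values were seen. The H2-Q genes share 10.9% (H2-Q1), 17.9% (H2-Q6) and 17.0% (H2-Q7) of their windows with other genes, so their split is uncertain. In the whole list surgery 2 was highest for 13 of 24 genes.

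Of 22 other genes of the class II pathway, 20 were in the table and 16 were tested. Of these 1 gene rose by both criteria, beside 9.01% of all tested genes called. It was Sppl2a, the intramembrane protease that removes the membrane stub of the invariant chain. It was at 38.4 and 36.7 CPM in the control mice and at 56.7 and 60.7 CPM in the surgery mice, with both surgery mice above both control mice. Its log2 fold change was 0.64 ± 0.08 (SE, edgeR adjusted p = 0.0050), a change that stood without each mouse in turn but was 0.04 (adjusted p = 0.82) with the length and GC offsets, its transcript having 39.7% GC. By adjusted p alone 3 of the 16 passed, beside 26% of all tested genes. Beside Sppl2a, Nfyb, a subunit of NF-Y, was higher (0.51 ± 0.10, edgeR adjusted p = 0.015) and Lgmn, a lysosomal asparaginyl endopeptidase, was lower (-0.41 ± 0.09, edgeR adjusted p = 0.017). Neither passed with the offsets, where Nfyb was at -0.01 and Lgmn at -0.34 (edgeR adjusted p = 0.094).

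The remaining tested class II pathway genes did not pass the test. Ctss, the protease that trims the invariant chain, was at 0.20 (edgeR adjusted p = 0.085), Ctsl at 0.13 and Nfyc at -0.02. With the length and GC offsets Ctss was at -0.02, Ctsl at -0.19 and Nfyc at -0.04. Ciita, the coactivator that class II transcription needs, had 61, 55, 54 and 62 counts in sham 1, sham 2, surgery 1 and surgery 2. Its level did not follow the class II genes across the mice. The median log2 fold change of the list was 0.04 (-0.01 with the offsets), and surgery 2 was highest for 6 of 16 genes. The peptide editor genes H2-DMa and H2-DMb1 had 180 to 229 and 21 to 48 counts. H2-DMb1, at 1.22, 1.64, 1.69 and 2.84 CPM, was higher in both surgery mice, with a log2 fold change of 0.67 ± 0.38 (SE, edgeR adjusted p = 0.24). Ciita, H2-DMa and H2-DMb1 were chosen after their values were seen.

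Interferon-gamma itself was near 0, with 0 counts in 3 mice and 1 count in surgery 2. Of 19 interferon signalling genes 18 were in the table and 16 were tested. None met both criteria by edgeR or DESeq2 and 4 had an unadjusted p under 0.05, beside 9.01% and 39.4% of all tested genes by edgeR. By adjusted p alone, which 26% of all tested genes passed, Jak2, a kinase of the interferon-gamma receptor, was higher (29.8 and 31.0 CPM in control mice, 43.0 and 45.0 CPM in surgery mice, log2 difference 0.53 ± 0.08, edgeR adjusted p = 0.0074). With the length and GC offsets Jak2 was at 0.22 (edgeR adjusted p = 0.21). Jak1 (0.00), Ifngr2 (0.07) and Ifnar1 (0.21) did not pass. The list had a median log2 fold change of 0.16, and surgery 2 was highest for 12 of 16 genes. Gbp2, an interferon-induced GTPase chosen after its values were seen, had 30, 30, 37 and 101 counts in sham 1, sham 2, surgery 1 and surgery 2.

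Markers of cell types that carry MHC molecules were set beside these values. The 6 markers of border-associated macrophages summed to 3.89 CPM in sham 1, 7.66 in sham 2, 6.33 in surgery 1 and 19.1 in surgery 2, while class II summed to 10.3, 22.8, 8.09 and 32.1 CPM. Both sums were higher in the second mouse of each group and highest in surgery 2, but class II was lowest in surgery 1 and the macrophage sum in sham 1. Among the markers Mrc1 had 26, 40, 35 and 99 counts, Cd163 had 14, 44, 23 and 73, and F13a1 had 13, 35, 17 and 75. Lyve1 (4, 11, 12 and 42 counts) and Pf4 (3, 4, 7 and 18) were higher in surgery 1 than in sham 2, unlike class II, and Ms4a7 (7, 6, 7 and 16) was not higher in sham 2 than in sham 1. The 9 microglia markers summed to 295 to 308 CPM, a sum whose members went both ways between groups, from P2ry12 (log2 fold change 0.84, edgeR adjusted p = 0.0046) to Cx3cr1 (-0.30, 0.27). With the length and GC offsets P2ry12 was at 0.16 (edgeR adjusted p = 0.45). The 3 monocyte markers summed to 0.813, 1.15, 0.690 and 3.5 CPM in sham 1, sham 2, surgery 1 and surgery 2, the same order as class II. They differed among themselves, with Ccr2 at 5, 8, 4 and 42 counts, Ly6c2 at 2, 10, 4 and 12, and Plac8 at 7, 3, 3 and 5. The 7 dendritic cell markers summed to 22.4 to 26.1 CPM, a sum carried by Flt3 and Zbtb46 (means of 13.1 and 9.78 CPM). The other 5 were each under 0.5 CPM on average, with Xcr1 and Ccr7 at 0 counts in 2 mice each.

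The 5 endothelial markers summed to 197, 206 and 218 CPM in sham 1, sham 2 and surgery 1 and to 289 CPM in surgery 2. The 5 did not share one order. Ly6c1 was at 38.0, 44.2, 28.1 and 49.2 CPM, the order of the heavy chain genes, and Cldn5 at 40.4, 30.5, 31.0 and 34.8 CPM. Slco1a4 (log2 fold change 0.87, edgeR adjusted p = 0.014) and Flt1 (0.41, 0.024) were higher in both surgery mice, and neither passed with the length and GC offsets (edgeR adjusted p = 0.30 and 0.070). The choroid plexus sum was 127, 5399, 2031 and 3440 CPM in sham 1, sham 2, surgery 1 and surgery 2. It was higher in the second mouse of each group, as class II was, but highest in sham 2. Of the B cell markers, Ighm was the most abundant, at 24.2, 13.3, 18.4 and 13.2 CPM, and was higher in the first mouse of each group, while Cd79a had 3 to 16 counts and Cd79b had 1 to 5. The 5 T cell markers summed to 0.871, 1.37, 0.941 and 1.54 CPM. Their sum was higher in the second mouse of each group and highest in surgery 2, as class II was, but lowest in sham 1. Each had at most 13 counts per mouse. Trac had 5, 9, 6 and 13, Cd8a 2, 4, 1 and 4, and Cd4 6, 9, 3 and 4. Cd3d was at 1, 2, 0 and 0 and Cd3e at 1, 1, 5 and 5. Neutrophil markers summed to 9.75, 15.6, 2.07 and 10.01 CPM, lowest in surgery 1 and higher in the second mouse of each group, as class II was, but highest in sham 2. Camp (12, 9, 0 and 6 counts) was not higher in sham 2 than in sham 1. The 4 tested neutrophil markers were all lower in surgery mice, with a median log2 fold change of -0.88. Ltf (45, 63, 8 and 24 counts) was called (-1.63, edgeR adjusted p = 0.039), beside 9.01% of all tested genes. With the length and GC offsets Ltf was at -1.60 (edgeR adjusted p = 0.11), and DESeq2 called 0 of the 4. Red blood cell markers summed to 5.09 to 11.2 CPM and astrocyte markers to 2836 to 3520 CPM. The part of any of these cells in the MHC values was not tested.

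**Figure D4:**
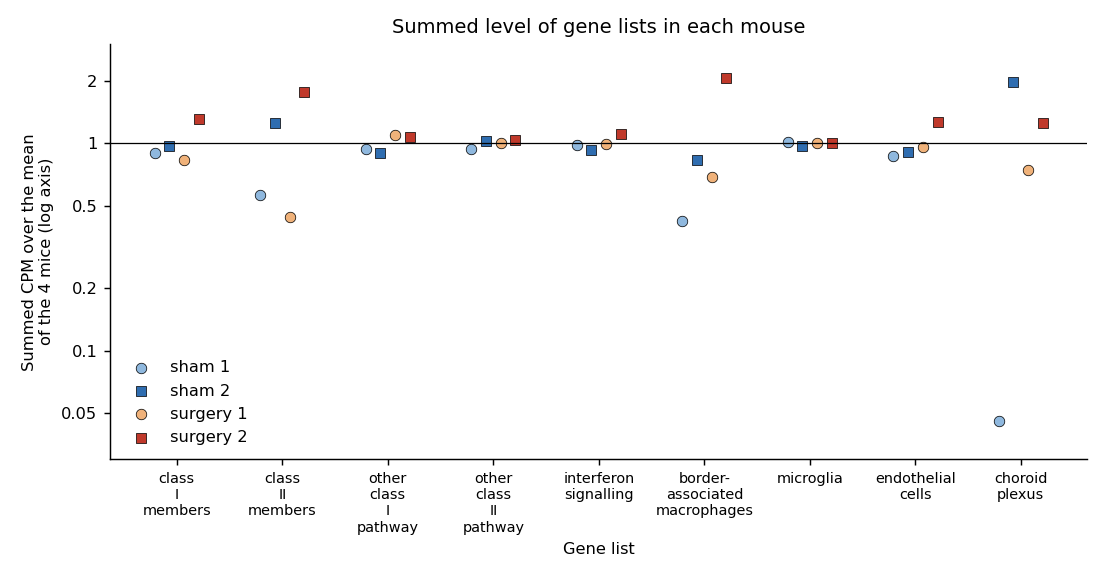
Summed CPM of each gene list in each mouse, divided by the mean of the 4 mice (log axis), with blue for sham and orange and red for surgery. The class II genes and the border-associated macrophage markers are highest in surgery 2, at 32.1 and 19.1 CPM, but class II is lowest in surgery 1 (8.09 CPM) and the macrophage markers in sham 1 (3.89 CPM), while the summed microglia markers lie near 1 and the choroid plexus markers drop in sham 1.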

How the data were processed

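Poly(A) RNA of the hippocampi of 2 control and 2 surgery mice was sequenced by the authors as 150 nt paired-end reads and mapped to mm10 with HISAT. The submitters' processing notes also name Bowtie2 2.2.3, HISAT2 2.1.0, TopHat2 and HTSeq 0.6.0 without their roles. The authors deposited read counts per gene, without normalization. The table also holds the authors' mean signal, fold change as a ratio, log2 fold change and p-values, which were not used.

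Coordinates are those of the table, and transcript lengths and GC contents were taken from GENCODE M21. Counts were filtered with edgeR 4.0.16 (R 4.3.3; filterByExpr, minimum count 10), scaled by TMM and tested for an effect of group, the only term, with the quasi-likelihood F test, with Benjamini-Hochberg adjustment over all tested genes. A gene was called at an adjusted p under 0.05 and a ratio of 1.5 or more, or of 0.67 or less. Length and GC offsets were smooth trends (mgcv 1.9.3, basis size 8). The other alternatives were DESeq2 1.42.0, other scalings, no filter, a replicate block, adjusted p alone and leaving out each mouse. The procedures were tested on simulated counts.

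All 10 members were named. Of the pathway and interferon lists, genes called by edgeR and up to 4 others of highest mean level were named, and further names in these lists, Nfyb and the single marker genes included, were chosen after their values were seen. The members and lists were chosen with earlier results of these data known. H2-M2, H2-Eb2, H2-Ea-ps, Cxcl9 and Ms4a1 were not analysed here. Promoter sequences are from RefSeq. With 2 mice per group, p-values rest on the spread between these mice only. In edgeR and DESeq2 the estimate of this spread for a gene also draws on the other tested genes.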

Additional observations from a re-analysis of the deposited data

How the results depend on the processing

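Under other scalings, no filter and DESeq2 the 4 counts of calls kept their value and both medians moved by less than the spread between mice. Across the 10 members, the settings other than leaving out a mouse kept direction and side of the threshold in 59 of 70 values, took 3 past it (all B2m, at 0.53 with library totals alone, 0.47 in DESeq2 and 0.47 with the replicate block, edgeR or DESeq2 adjusted p = 0.044, 0.012 and 0.030) and reversed 8. The reversed values with the length and GC offset were -0.026 for B2m, 0.14 for H2-D1, 0.15 for Tap2 and 0.18 for H2-Ab1, and with the replicate block added -0.041, 0.10, 0.16 and 0.14. The cause was not tested. The replicate numbers do not pair the mice by any label (correlation of deviations 0.22, from 2 pairs). The replicate block called 0 class I and 0 class II members but 3 other class I pathway genes (H2-Q1, H2-T24 and Mr1) of 24 tested against 0 without it, beside 10% of all tested genes under the block, and 1 (H2-Q1) with the block and offset, beside 2.3%. The other class II pathway genes called went from 1 to 0 with the offset, with or without the block, while the share of all tested genes called went from 9.01% to 0.637% and 2.3%. By adjusted p alone 2 of 24 other class I and 3 of 16 other class II pathway genes passed, beside 26% of all tested genes. Leaving out each mouse gave 0 to 1 class I members called (B2m, without surgery 1), 0 to 3 other class I pathway genes (H2-Q1, H2-Q6 and H2-Q7 without surgery 1, H2-T24 without sham 1 and Mr1 without sham 2, beside 10.8%, 9.33% and 5.64% of all genes tested in these settings) and 1 to 2 other class II pathway genes (Nfyb added without sham 2). The class I median ran from -0.35 to 0.43 and the class II median from -1.04 to 1.01. Log2 fold changes of single members ran from 0.23 to 0.69 (B2m), -0.53 to 0.27 (H2-D1), -0.38 to 0.42 (H2-K1), -0.36 to 0.45 (Tap1), -0.39 to 0.30 (Tap2), -0.15 to 0.52 (Tapbp), -1.34 to 1.06 (Cd74), -0.57 to 0.99 (H2-Aa), -1.25 to 0.65 (H2-Ab1) and -0.83 to 1.18 (H2-Eb1). Where 1 mouse was left, it was assumed to vary like the other group. Class II rests on 27 to 210 counts per mouse and gene and on 2 mice per group.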
